A study of Mus musculus with 15 samples.

Results

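The genes described here are 7 genes of the neutrophil lineage, most of them for granule proteins. Elane, Prtn3 and Ctsg encode the serine proteases neutrophil elastase, proteinase 3 and cathepsin G, and Mpo encodes myeloperoxidase. The others are Ctsc, Srgn and Ms4a3, the last of which encodes a membrane protein. The 7 genes were picked by gene symbol, and all are among the 14801 genes of the deposited table and among the 14161 genes tested. Elane, Prtn3, Ctsg, Mpo, Srgn and Ms4a3 were lower in ProNeut than in PreNeut libraries. Elane, Prtn3, Ctsg, Mpo, Ctsc and Ms4a3 had lower values in Neutrophil than in CD115plusGMP libraries, but the reads of those libraries appear to be counted on the strand opposite to the genes, so these values may not be levels of the genes' messenger RNA.

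RNA was sequenced from 5 populations sorted from the bone marrow of healthy mice, with 3 libraries each and 15 libraries in all. The groups are Neutrophil, ProNeut_Neutrophil (ProNeut here), PreNeut_Neutrophil (PreNeut here), CD115plusGMP (granulocyte-monocyte progenitors with CD115, the receptor of colony-stimulating factor 1) and CMP (common myeloid progenitors). GMP and CMP are given their usual readings, the labels hold no more than these names, and they give no order of stages for ProNeut and PreNeut. No allele, treatment, strain, age or gating marker beyond CD115 is given in the sources used here. Nothing in the labels ties the 3 libraries of a group to different mice. The p-values here therefore reflect library-to-library spread alone, part or all of which may be technical. In the main test that spread is taken over all 15 libraries, so libraries outside a comparison count too.

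Azurophilic, or primary, granules are the first granules made as neutrophils form. In mouse and human marrow their proteases and myeloperoxidase are transcribed mainly at the promyelocyte stage, and the proteins are stored until the mature cell meets a microbe. The proteases are made as inactive precursors, which cathepsin C (Ctsc, also called dipeptidyl peptidase I) activates by removing a dipeptide. Serglycin (Srgn) is the proteoglycan whose sulphated chains hold basic granule proteins, and Ms4a3 is a membrane protein of early granulocyte and monocyte precursors.

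Elane and Prtn3 lie side by side on chromosome 10 in the GRCm38 build with GENCODE M21 annotation. Prtn3 spans chr10:79874476-79883174 and Elane chr10:79886247-79888215, both on the plus strand, with 3073 bases between them. Ctsg spans chr14:56099881-56102574 on the minus strand, Mpo chr11:87793581-87804413 on the plus strand and Ctsc chr7:88278085-88310888 on the plus strand. Srgn spans chr10:62493833-62527451 and Ms4a3 chr19:11629496-11640851, both on the minus strand. Read counts are sums over each gene and do not separate coding sequence from untranslated regions.

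The promoters of Elane, Prtn3, Mpo, Ctsg and Ctsc are shown because these are the members that share the motif AGGAAGT, the core bound by PU.1, a transcription factor that myeloid cells need. They are the RefSeq windows of GRCm38.p6 from 250 bases before to 50 bases after the gene's start, written 5′ to 3′ along the gene. Capitals mark AGGAAGT, or ACTTCCT where it lies on the opposite strand.
Elane, chr10:79886062-79886361, plus strand: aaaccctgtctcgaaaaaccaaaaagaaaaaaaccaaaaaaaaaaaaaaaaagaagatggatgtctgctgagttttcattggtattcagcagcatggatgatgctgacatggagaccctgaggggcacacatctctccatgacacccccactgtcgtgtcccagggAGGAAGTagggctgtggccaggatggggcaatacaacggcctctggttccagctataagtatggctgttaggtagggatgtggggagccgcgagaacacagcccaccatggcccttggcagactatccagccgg
Prtn3, chr10:79879417-79879716, plus strand: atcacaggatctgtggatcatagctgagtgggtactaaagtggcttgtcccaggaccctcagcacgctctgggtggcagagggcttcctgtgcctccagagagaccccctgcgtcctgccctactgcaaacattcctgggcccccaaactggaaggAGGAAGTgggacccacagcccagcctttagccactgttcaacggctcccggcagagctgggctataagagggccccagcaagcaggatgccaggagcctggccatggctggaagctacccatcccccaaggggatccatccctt
Mpo, chr11:87793534-87793833, plus strand: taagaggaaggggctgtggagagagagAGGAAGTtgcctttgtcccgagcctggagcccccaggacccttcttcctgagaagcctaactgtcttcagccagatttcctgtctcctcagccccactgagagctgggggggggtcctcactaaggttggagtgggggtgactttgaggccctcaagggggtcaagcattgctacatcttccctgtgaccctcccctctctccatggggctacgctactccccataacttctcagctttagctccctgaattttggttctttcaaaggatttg
Ctsg, chr14:56102525-56102824, minus strand: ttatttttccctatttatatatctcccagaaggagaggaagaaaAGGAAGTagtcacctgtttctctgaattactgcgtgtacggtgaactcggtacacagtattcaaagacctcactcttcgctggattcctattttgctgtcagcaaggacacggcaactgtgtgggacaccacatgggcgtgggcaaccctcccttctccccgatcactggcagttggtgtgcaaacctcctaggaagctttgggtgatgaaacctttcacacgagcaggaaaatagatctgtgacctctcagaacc
Ctsc, chr7:88277835-88278134, plus strand: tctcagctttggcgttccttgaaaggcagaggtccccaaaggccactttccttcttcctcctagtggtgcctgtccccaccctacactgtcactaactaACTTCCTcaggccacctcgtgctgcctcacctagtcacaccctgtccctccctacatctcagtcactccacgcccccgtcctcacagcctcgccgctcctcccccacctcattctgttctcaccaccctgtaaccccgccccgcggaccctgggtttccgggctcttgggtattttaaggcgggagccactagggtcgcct

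AGGAAGT was searched on both strands of all 32851 promoter windows of this length, and 9.35% of them held it. Of the 7 members, 5 had a window that held it. It began 84 bases before the start of Elane, 94 before Prtn3, 206 before Ctsg and 223 before Mpo, on the gene's own strand, and 151 bases before Ctsc on the opposite strand. These distances count from the RefSeq start, which lies 65 bases past the start of the GENCODE span above for Elane, 203 for Mpo and 5191 for Prtn3, and matches it for Ctsg and Ctsc. The shorter motif GCAAT, part of the C/EBP motif, was in the windows of Elane, Mpo and Ms4a3 and in 26.4% of all windows. The RUNX motif TGTGGT was in those of Ctsg and Srgn and in 16.8% of all windows. The MYB motif AACNG was in those of 6 members, but 80.3% of all windows held it. No match of one motif overlapped a match of another in these windows. The motifs were chosen with these promoters in view, and a match is a description of the sequence only.

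The libraries form 2 sets that follow the groups. The 9 Neutrophil, CD115plusGMP and CMP libraries (the first set) had 810794 to 1444403 reads over the table's genes, and the 6 ProNeut and PreNeut libraries (the second set) had 7493694 to 68171606. In the first set 69.1% to 93.3% of mitochondrial reads fell on ND6, the one protein gene of the other mitochondrial strand, against 0.154% to 0.230% in the second set. Rows without a gene symbol held 55.6% to 69.5% of reads in first-set libraries and 0.102% to 0.146% in second-set ones. It is thus the first set that appears to be counted on the opposite strand. Its values for a gene, those of Neutrophil, CD115plusGMP and CMP libraries throughout, may then be reads from the strand opposite to that gene, not from its messenger RNA. Set and group cannot be told apart, and no test was made across sets. The neutrophil markers were higher in Neutrophil than in CMP libraries for 8 of 8 genes, and the monocyte markers higher in CD115plusGMP than in CMP libraries for 6 of 6. Csf1r, which encodes CD115, had 27 reads in CD115plusGMP and 2 in CMP libraries, and also 66 in Neutrophil libraries. Csf1r shares 873 exon bases with Hmgxb3 on the opposite strand, so these reads may not be Csf1r messenger RNA. CMP libraries held 10 reads of Cd34 and 23 of Kit, their usual markers, and 263 of the erythroid gene Car1. Cd34 had more reads in the other groups, 30 in CD115plusGMP and 14 in Neutrophil libraries, while Kit had 10 and 1. Cd34 shares 148 exon bases with Gm16897 on the opposite strand, so its reads carry the same doubt as those of Csf1r.

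In the second set, 6 of the 7 members were lower in ProNeut than in PreNeut libraries and none was higher. Over all genes tested, 0.417% were called lower and 1.84% higher, a call being a Benjamini-Hochberg adjusted p under 0.05 in limma and a difference of at least 1 on the log2 scale. The median difference of the members was -3.48 log2 units, beside 0.07 for all genes tested. These are bulk libraries, so fewer cells that express a gene and less RNA per cell cannot be told apart.

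**Figure D1:**
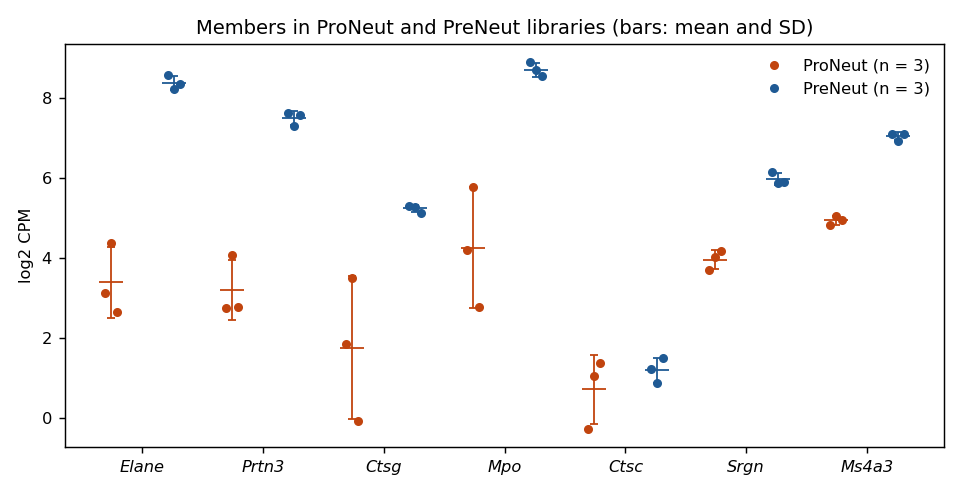
Level of each member (log2 CPM) in 3 ProNeut and 3 PreNeut libraries; points are libraries and bars the mean and SD. The groups overlap for Ctsc alone, and the ProNeut libraries spread widest for Ctsg (SD 1.79) and Mpo (SD 1.51).

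Of the members, Elane differed most. It was at 3.13, 4.40 and 2.67 log2 CPM (CPM being reads scaled to a fixed library size) in ProNeut replicates 1 to 3, against 8.58, 8.23 and 8.37 log2 CPM in PreNeut replicates 1 to 3. The groups lie far apart, with the highest ProNeut library at replicate 2. The limma difference was -5.00 ± 0.62 log2 units (SE, adjusted p = 0.000376), from 735 ProNeut reads and 64810 PreNeut reads.

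Prtn3 was at 2.76, 4.08 and 2.80 log2 CPM in ProNeut libraries, against 7.64, 7.31 and 7.58 in PreNeut libraries, again with no overlap and with ProNeut replicate 2 highest. Its difference was -4.30 ± 0.67 (adjusted p = 0.00223, limma). Ctsg was at 1.87, 3.50 and -0.08 log2 CPM in ProNeut libraries, against 5.32, 5.28 and 5.14 in PreNeut libraries. The PreNeut libraries lie close together and ProNeut replicate 3, with 24 reads, lies far below replicate 2, with 237. The difference of -3.48 ± 0.85 passed narrowly (adjusted p = 0.0417, limma), and it missed the threshold without any one of 5 of the 6 libraries, with an adjusted p of up to 0.187.

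Mpo, the enzyme that makes hypochlorous acid from hydrogen peroxide, was at 4.22, 5.79 and 2.77 log2 CPM in ProNeut libraries, against 8.90, 8.70 and 8.55 in PreNeut libraries. ProNeut replicate 2 was again highest and replicate 3 lowest. The difference was -4.46 ± 0.84 (adjusted p = 0.00852, limma). In PreNeut libraries Mpo stood at percentile 99.5 ± 0.0855 of all genes by reads (SD, n = 3), and in ProNeut libraries at percentile 71.8 ± 17.1.

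Srgn and Ms4a3 fell by less, and their ProNeut libraries lay close together. Srgn was at 3.70, 4.03 and 4.18 log2 CPM in ProNeut libraries, against 6.15, 5.89 and 5.90 in PreNeut libraries. Its difference was -2.01 ± 0.33 (adjusted p = 0.00416, limma). Ms4a3 was at 4.83, 5.06 and 4.97 log2 CPM in ProNeut libraries, against 7.11, 6.94 and 7.12 in PreNeut libraries. Its difference was -2.10 ± 0.51 (adjusted p = 0.0383, limma). This missed the threshold when any one library was left out, with an adjusted p of 0.0797 to 0.144 and a difference of -2.16 to -2.04. The spread behind this SE is taken over all 15 libraries. The SD of Ms4a3 was 0.118 in ProNeut and 0.0988 in PreNeut libraries, against 1.08 in Neutrophil, 0.397 in CD115plusGMP and 0.262 in CMP libraries.

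Ctsc, the activator of the proteases, did not pass. It was at -0.26, 1.05 and 1.38 log2 CPM in ProNeut libraries, against 1.23, 0.87 and 1.50 in PreNeut libraries, so the groups overlap. The difference was -0.47 ± 0.53 (adjusted p = 0.964, limma), from 122 ProNeut reads and 508 PreNeut reads. The ratio of scaled reads was 0.753 with a 95% counting interval of 0.613 to 0.920, which covers counting error only.

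The make-up of the members' reads is given as a description, with no test. Of the reads on the 7 genes, Ms4a3 took 33.2% ± 10.9 in ProNeut libraries and 11.3% ± 0.879 in PreNeut libraries (SD, n = 3 each). Srgn took 17.2% ± 7.27 in ProNeut and 5.35% ± 0.0834 in PreNeut libraries. Elane took 11.0% ± 2.38 in ProNeut and 28.6% ± 1.07 in PreNeut libraries. Mpo took 22.7% ± 13.1 in ProNeut and 35.8% ± 2.49 in PreNeut libraries, and its share in ProNeut replicate 2, at 35.5%, lay within the PreNeut range.

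Set against Elane in the same library, no other member's ratio could pass an exact test between the groups, with 3 libraries in each. Elane differed most of the members, so a ratio to it lies higher in ProNeut libraries by construction. Ms4a3 had 3.26, 1.59 and 4.93 reads per Elane read in ProNeut libraries, against 0.360, 0.409 and 0.419 in PreNeut libraries. Prtn3 had 0.777, 0.805 and 1.09 reads per Elane read in ProNeut libraries, against 0.521, 0.529 and 0.576 in PreNeut libraries. The groups do not overlap for either gene, nor for Ctsg, Ctsc and Srgn. For these 5 genes the exact 2-sided permutation test gave p = 0.1, the smallest that 3 against 3 libraries allow, and 0.12 after Benjamini-Hochberg adjustment over the 6 ratios. Mpo had 2.14, 2.64 and 1.07 reads per Elane read in ProNeut libraries, against 1.25, 1.39 and 1.13 in PreNeut libraries, which overlap (exact permutation p = 0.4).

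**Figure D2:**
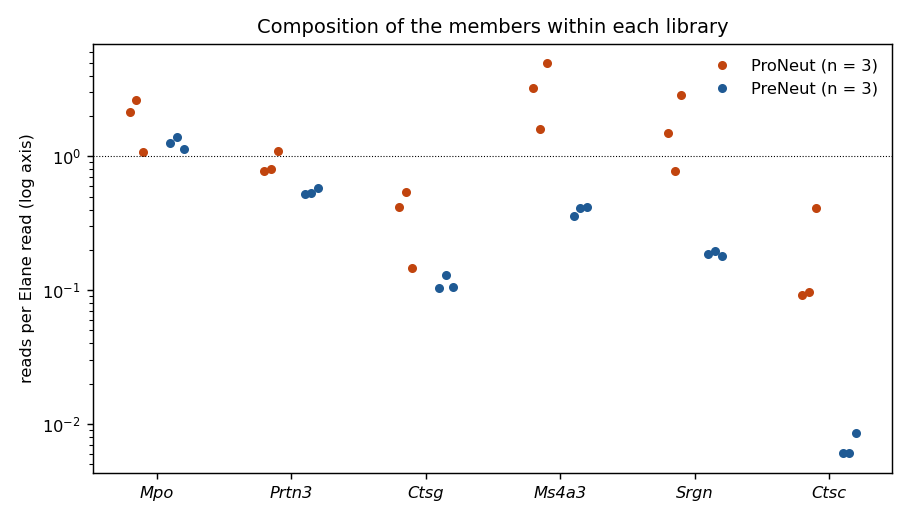
Reads of each other member per read of Elane in the same library (log axis), for 3 ProNeut and 3 PreNeut libraries; each point is a library and the dotted line marks 1. ProNeut points lie above all PreNeut points for Prtn3, Ctsg, Ms4a3, Srgn and Ctsc, while those of Mpo overlap.

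Per length of exon, the order of the members is again a description. The values below are CPM from plain library totals per kilobase of exon. In ProNeut libraries Ms4a3 came first at 33.1 ± 3.73, then Elane at 25.0 ± 17.5, Mpo at 16.3 ± 15.8, Srgn at 14.4 ± 2.30, Prtn3 at 12.0 ± 7.39 and Ctsg at 10.6 ± 11.1 (SD, n = 3). In PreNeut libraries Elane came first at 732 ± 70.3, then Mpo at 264 ± 33.5, Prtn3 at 225 ± 17.6, Ms4a3 at 151 ± 3.72, Ctsg at 78.6 ± 7.10 and Srgn at 61.5 ± 5.77. Ctsc came last in both, at 0.626 ± 0.309 in ProNeut and 0.848 ± 0.154 in PreNeut libraries. Each neighbouring pair of the first 6 overlaps in ProNeut libraries, whereas in PreNeut libraries the sole overlap is between Mpo and Prtn3.

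The genes around Elane did not all follow it. Cfd, the complement factor D gene 2638 bases past Elane, had 0 reads in ProNeut and 70 in PreNeut libraries and did not pass (-2.90 ± 0.81, adjusted p = 0.0836, limma). Med16, a Mediator subunit gene 6493 bases past Elane, differed by 0.12 ± 0.81 (adjusted p = 0.9998, limma). Plppr3 overlaps Prtn3 on the opposite strand by 159 exon bases. It was at 1.25, 1.77 and 1.87 log2 CPM in ProNeut libraries, against 3.55, 3.78 and 3.93 in PreNeut libraries, a difference of -2.12 ± 0.22 (adjusted p = 7.22e-05, limma). Its 2815 PreNeut reads are few beside the 36397 of Prtn3, and the strand setting of the counting is not given in the sources used here. Med16 and Plppr3 were chosen after their values were seen.

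**Figure D3:**
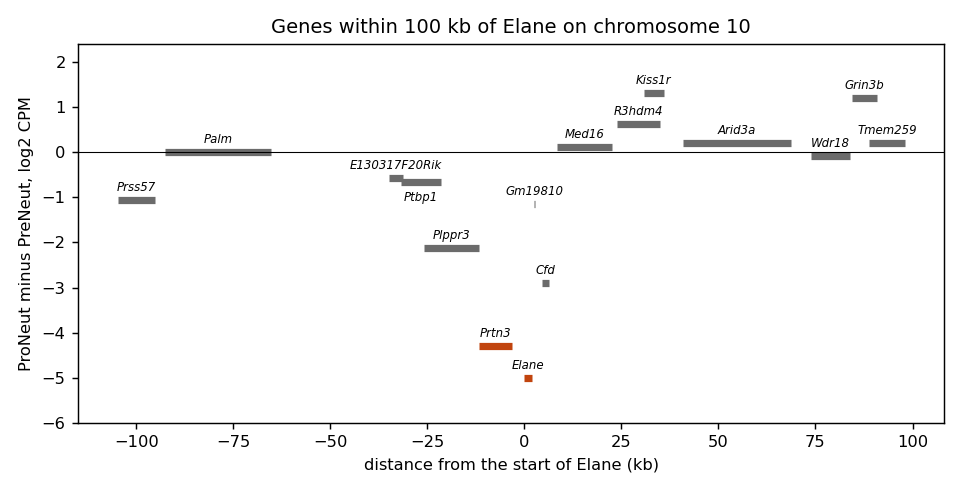
Difference between the mean ProNeut and mean PreNeut level (log2 CPM) of each tested gene within 100 kb of Elane, against distance from the start of Elane in kilobases; each bar spans the gene and the members are coloured. Elane (-5.00) and Prtn3 (-4.30) are lowest, and Med16 at 0.12 lies close by.

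Other genes that act with the members mostly did not pass in this comparison. Of 13 tested genes for other azurophilic and lysosomal cargo, 0 were called by limma, and 1 had an unadjusted p under 0.05. That gene was Prss57, neutrophil serine protease 4, a paralogue of Elane, at 4.01, 4.03 and 4.11 log2 CPM in ProNeut libraries, against 5.19, 4.87 and 5.30 in PreNeut libraries. The groups do not overlap, and the difference of -1.07 ± 0.30 had an adjusted p of 0.0893, and was called in 5 of the alternative fits. The tetraspanin Cd63 (-0.55 ± 0.64), the lysosomal protease Ctsb (-0.51 ± 0.51) and the glucuronidase Gusb (-0.45 ± 0.40) had the next largest differences. Each of them was also lower in every ProNeut than in every PreNeut library, and the SEs are taken over all 15 libraries.

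Of the 19 genes for folding, haem, chondroitin sulphate and sorting, 1 was lower, Cst7, which encodes cystatin F, an inhibitor of cysteine cathepsins that include cathepsin C. It had 1, 35 and 15 reads in ProNeut libraries, against 274, 255 and 1231 in PreNeut libraries. Like Elane, Mpo and Ctsg it was highest in ProNeut replicate 2. The difference was -4.36 ± 0.77 (adjusted p = 0.00623, limma). Csgalnact1, a chondroitin sulphate enzyme, differed by 1.50 ± 0.66 (adjusted p = 0.375), the glucose-6-phosphatase G6pc3 by -0.76 ± 0.79 (adjusted p = 0.934) and ferrochelatase, Fech, by -0.64 ± 0.46 (adjusted p = 0.728).

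None of the 8 transcription factors known to act on these genes was called by limma, and 0 had an unadjusted p under 0.05 in ProNeut against PreNeut libraries. The largest differences were those of Cebpa at -0.83 ± 0.56, Cbfb at -0.46 ± 0.51, Cebpb at -0.43 ± 0.38 and Spi1, the PU.1 gene, at 0.25 ± 0.55. The groups do not overlap for Cebpa, Cbfb and Cebpb, each lower in ProNeut libraries, and they overlap for Spi1. These SEs are taken over all 15 libraries. With the 6 libraries fitted alone 0 factors were called, but a call needs at least 1 log2 unit, so smaller differences are not excluded. None of the 6 tested inhibitor genes was called, and 1 had an unadjusted p under 0.05. Slpi, the secretory leukocyte protease inhibitor, differed by 1.79 ± 0.83 (adjusted p = 0.423), and Serpinb1a, an elastase inhibitor, by -0.44 ± 0.73 (adjusted p = 0.9998). The groups do not overlap for either gene. With voom weights, and with the 6 libraries fitted alone, 1 inhibitor and 1 cargo gene were called, which were Slpi and Prss57.

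Of the 8 later granule genes, 3 were higher in ProNeut libraries and none lower. Mmp8, the neutrophil collagenase, was at 9.80, 9.40 and 9.72 log2 CPM in ProNeut libraries, against 2.74, 2.07 and 2.50 in PreNeut libraries (7.20 ± 0.61, adjusted p = 1.48e-05, limma). Mmp9, gelatinase B, differed by 4.39 ± 0.40 (adjusted p = 3.01e-05) and Retnlg by 4.82 ± 0.48 (adjusted p = 5.05e-05). Lactoferrin, Ltf, a specific granule protein, differed by 0.39 ± 0.36 (adjusted p = 0.867).

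**Figure D4:**
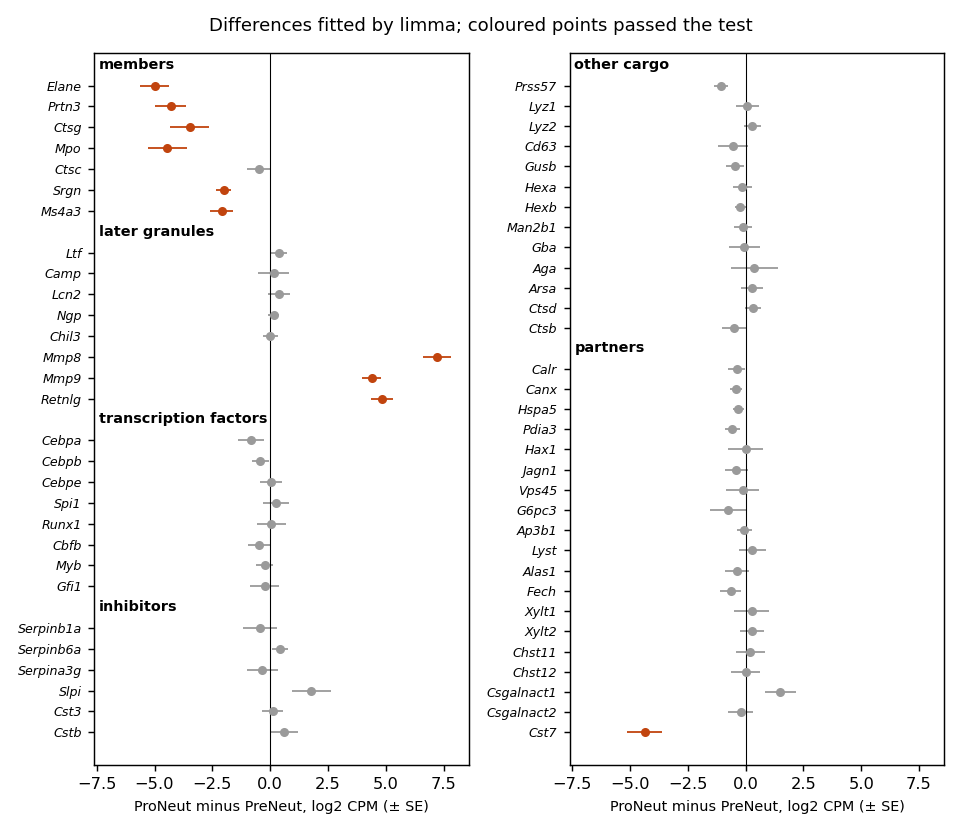
Difference between ProNeut and PreNeut libraries (log2 CPM, limma, n = 3 each) with its SE for the members and 5 lists of related genes; coloured points passed the test. Of the members 6 of 7 lie left of 0 and passed, while Mmp8, Mmp9 and Retnlg are the coloured points to the right.

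Markers of other cells also differed between ProNeut and PreNeut libraries, some lower like the members and some higher. Of the paralogues and gene neighbours, 3 of 19 tested were lower in ProNeut libraries, and all 3 are genes of basophils or mast cells. The serine protease Prss34 had 15, 7 and 22 reads in ProNeut libraries, against 341, 359 and 1712 in PreNeut libraries (-4.24 ± 0.61, adjusted p = 0.00128, limma). Mcpt8, the nearest tested gene to Ctsg at a distance of 14608 bases, had 28 reads in ProNeut and 1566 in PreNeut libraries (-4.22 ± 0.53, adjusted p = 0.000413), and Ms4a2, 5777 bases from Ms4a3, had 15 and 199 (-2.43 ± 0.61, adjusted p = 0.0465). Ms4a2 missed the threshold without any one of 4 of the 6 libraries.

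Summed marker levels here and below are CPM from plain library totals, unlike the values behind the calls. Of the 5 tested basophil and mast cell markers 4 were lower in ProNeut libraries. Their summed level was nonetheless 332 to 403 in ProNeut and 314 to 325 in PreNeut libraries, most of it from Hdc. Of the 8 tested erythroid markers 4 were higher in ProNeut libraries, with a summed level of 85.8 to 93.6 in ProNeut and 4.86 to 12.0 in PreNeut libraries. Of the 8 neutrophil markers 3 were higher in ProNeut libraries, and all 3 are the later granule genes named above. The T and NK cell marker Nkg7 was lower, with 144 reads in ProNeut and 4401 in PreNeut libraries, and Cd3d was higher, with 98 and 18. None of the tested stem and progenitor (5), monocyte (6), eosinophil (3), megakaryocyte (3) and B cell (2) markers was called by limma, and 2, 1, 1, 0 and 0 of them had an unadjusted p under 0.05. Of 4 dendritic cell markers 1 was higher. Of the monocyte markers, F13a1 had 11, 136 and 13 reads in ProNeut replicates 1 to 3, and Ccr2 had 12, 40 and 17. Like Elane, F13a1, Ccr2 and Irf8 were highest in ProNeut replicate 2. Csf1r and Ly6c2 were highest in replicate 3 and Fn1 in replicate 1. The part of other cells in the members' differences was not tested.

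In the first set, 6 of the 7 members were higher in CD115plusGMP than in CMP libraries and none was lower. Over all genes tested 8.08% were called higher and 4.56% lower. With plain library totals in place of the authors' library sizes, these shares were 4.91% and 9.77%, and the median difference over all genes moved by -0.56 log2 units. The same 6 members were called under every alternative that was run. Depth is low here, so the reads assigned to each gene are given for each library, and the doubt about their strand holds for every fold below.

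Mpo had 371, 129 and 149 reads in CD115plusGMP libraries, against 1, 7 and 5 in CMP libraries, the most of any member in CD115plusGMP. The limma difference was 6.41 ± 0.84 log2 units (adjusted p = 7.98e-05). Elane had 65, 19 and 17 reads in CD115plusGMP libraries and none in the 3 CMP libraries. Against the limit of 3 reads that 0 reads over the group allow, it was at least 58.4-fold higher (adjusted p = 2.71e-06, limma), or at least 39.7-fold with plain library totals.

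Prtn3 had 83, 28 and 30 reads in CD115plusGMP libraries, against 2, 0 and 0 in CMP libraries. The ratio of scaled reads was 122 with a 95% counting interval of 33.2 to 1019 (adjusted p = 7.01e-06, limma). Plppr3, which overlaps Prtn3 on the opposite strand, had 4609 reads in CD115plusGMP and 4726 in CMP libraries and was not called (0.75 ± 0.22), so with the strand in doubt the ratio may not be one of Prtn3 messenger RNA. Ctsg had 83, 19 and 46 reads in CD115plusGMP libraries, against 0, 5 and 3 in CMP libraries (5.12 ± 0.85, adjusted p = 0.000613). CD115plusGMP replicate 1 was highest for each of these 4 genes, and no CMP library reached any CD115plusGMP library.

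Ctsc had 36, 14 and 15 reads in CD115plusGMP libraries and none in CMP libraries, at least 37.6-fold higher (adjusted p = 1.23e-06, limma). Ms4a3 had 16, 8 and 6 reads in CD115plusGMP libraries and none in CMP libraries, at least 17.3-fold higher (adjusted p = 4.5e-06). Srgn alone did not pass. It had 15, 12 and 9 reads in CD115plusGMP libraries, against 14, 14 and 18 in CMP libraries (0.44 ± 0.33, adjusted p = 0.442), and with plain library totals its difference changed sign to -0.11.

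Related genes called between CD115plusGMP and CMP libraries were mostly higher, though in most lists the larger part was not called. Of 8 transcription factors 5 were higher, led by Cebpa with 69 reads in CD115plusGMP and 3 in CMP libraries (4.95 ± 0.56, adjusted p = 1.67e-05, limma). Of 6 inhibitors 5 were higher, led by Serpinb1a with 61 reads in CD115plusGMP and 9 in CMP libraries. The number called was 3 without CD115plusGMP replicate 1, without its replicate 2 or without CMP replicate 1, and also 3 with plain library totals, where Serpina3g was among them and was lower. Of 13 cargo genes 5 were higher, led by the lysozyme gene Lyz2 with 331 reads in CD115plusGMP and 6 in CMP libraries. Of 19 partners 6 were higher and 1, ferrochelatase, was lower, of 19 paralogues and gene neighbours 8 were higher, and of 8 later granule genes 1, Chil3, was higher. From plain library totals, the monocyte markers had a summed level of 176 to 301 CPM in CD115plusGMP and 15.9 to 18.9 in CMP libraries. The erythroid markers had 2.47 to 3.22 in CD115plusGMP and 297 to 382 in CMP libraries. The part of both kinds of markers in the members' differences was not tested.

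The comparisons of the first set share groups, so each is given on its own and no overlap between them is counted. Between Neutrophil and CD115plusGMP libraries 6 members were lower and 1 was higher, where 13.2% of all genes tested were called lower and 20.2% higher. With plain library totals these shares were 22.0% and 12.7%, and the median over all genes moved by -0.81 log2 units. All 7 members were called in the same direction under every alternative that was run. Of 6 monocyte markers 4 were lower as well (Irf8, Ccr2, F13a1 and Fn1) and none was higher. Their summed level, from plain library totals, was 3.12 to 67.8 CPM in Neutrophil and 176 to 301 CPM in CD115plusGMP libraries. The B cell marker Cd79a had 72 reads in Neutrophil and 6 in CD115plusGMP libraries and the T cell marker Cd3d had 16 and 1, both called higher. All 8 neutrophil markers were higher. The part of these cells in the members' differences was not tested.

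**Figure D5:**
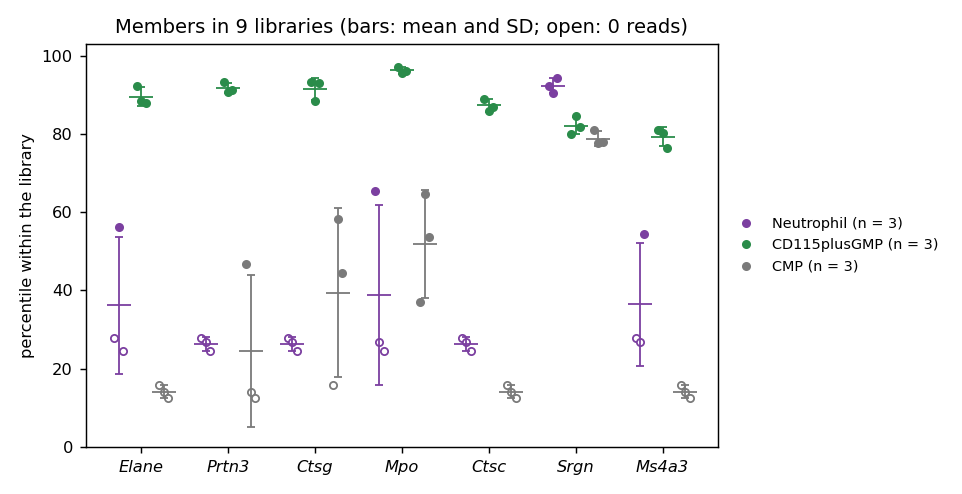
Percentile of each member among all genes of a library by reads, in 3 Neutrophil, 3 CD115plusGMP and 3 CMP libraries; points are libraries, open where the library had 0 reads, and bars are the mean and SD. Elane, Prtn3, Ctsg, Mpo, Ctsc and Ms4a3 stand highest in CD115plusGMP libraries, and Srgn stands highest in Neutrophil libraries, at 92.4.

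Prtn3, Ctsg and Ctsc had 0 reads in each of the 3 Neutrophil libraries, against 141, 148 and 65 reads over the CD115plusGMP libraries. Prtn3 was at least 32.8-fold lower (adjusted p = 4.58e-06, limma), Ctsg at least 34.4-fold lower (adjusted p = 5.09e-05) and Ctsc at least 15.1-fold lower (adjusted p = 3.53e-06). Mpo had 3, 0 and 0 reads in Neutrophil libraries and 649 in all in CD115plusGMP libraries, a ratio of 0.00662 with a 95% counting interval of 0.00136 to 0.0194. Elane had 0, 1 and 0 reads in Neutrophil libraries, against 101 in all in CD115plusGMP libraries. Ms4a3 had 0, 0 and 3 reads in Neutrophil libraries, against 30 in all in CD115plusGMP libraries, a ratio of 0.143 with an interval of 0.0280 to 0.461. The adjusted p was 6.79e-06 for Mpo, 1.97e-05 for Elane and 0.000396 for Ms4a3 (limma).

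Srgn ran the other way. It was at 7.04, 6.84 and 7.79 log2 CPM in Neutrophil libraries, against 4.33, 4.56 and 4.18 in CD115plusGMP libraries, from 217 and 36 reads. The difference was 2.87 ± 0.33 (adjusted p = 5.45e-06, limma), and the groups do not overlap. Of the reads on the 7 members, Srgn took 96.2% ± 2.49 in Neutrophil libraries and 3.60% ± 1.52 in CD115plusGMP libraries (SD, n = 3 each).

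The lists of related genes were mixed. Of 13 cargo genes 6 were higher in Neutrophil than in CD115plusGMP libraries and none was lower, led by the cathepsin D gene Ctsd with 499 reads in Neutrophil and 37 in CD115plusGMP libraries (3.92 ± 0.35, adjusted p = 3.89e-07, limma). Of 8 transcription factors 4 were higher and none was lower, among them Cebpe with 162 reads in Neutrophil and 12 in CD115plusGMP libraries (3.92 ± 0.48, adjusted p = 9.64e-06). Of 6 inhibitors 2 were higher, Slpi and Serpinb6a, and 1 was called without Neutrophil replicate 1 or 2 or CD115plusGMP replicate 3. Of 19 paralogues and gene neighbours 2 were higher, Prss57 and Ctsd, and 3 were lower, Lpo, Ms4a6c and Ms4a4c. Of 19 partners 3 were higher and 7 lower. Cst7 had 0 reads in Neutrophil and 14 in CD115plusGMP libraries, at least 3.26-fold lower, and Lyst, a sorting gene, had 279 and 16. All 8 later granule genes were higher, among them Ngp with 2924 reads in Neutrophil and 10 in CD115plusGMP libraries.

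Between Neutrophil and CMP libraries Srgn was the only called member with more than 3 reads in each group. It had 42, 37 and 138 reads in Neutrophil libraries, against 14, 14 and 18 in CMP libraries. The difference was 3.31 ± 0.33 log2 units (adjusted p = 6.29e-07, limma), and the ratio of scaled reads was 11.7 with a 95% counting interval of 8.49 to 16.5, or 4.72 with plain library totals. Elane, Ctsc and Ms4a3 also passed as higher, so 4 of 7 were called, where 26.8% of all genes tested were called higher and 17.1% lower. With plain library totals these shares were 13.6% and 32.9%, and the median over all genes moved by -1.36 log2 units.

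Those 3 calls rest on 1 against 0 reads, 0 against 0 reads and 3 against 0 reads, in Neutrophil against CMP libraries, which are at or under the 3-read limit in both groups, so no fold is given. A gene with 0 reads is at -0.32 to 0.63 log2 CPM in a Neutrophil library and at -1.31 to -0.79 in a CMP library, because of the library sizes the values imply. With plain library totals Srgn was the sole member called. Ctsg had 0 reads in Neutrophil and 8 in CMP libraries, Mpo 3 and 13, and Prtn3 0 and 2, and none of the 3 was called. Of the related genes, 8 of 13 cargo genes, 6 of 8 transcription factors, 4 of 6 inhibitors and all 8 later granule genes were higher in Neutrophil than in CMP libraries, and 6 of 8 erythroid markers were lower, at 0 reads in Neutrophil libraries.

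Genes on the opposite strand next to members are given because the counted strand differs between the sets. Lpo, the lactoperoxidase gene, lies 2015 bases past Mpo on the other strand. It had 59, 33 and 28 reads in CD115plusGMP libraries, against 1, 0 and 1 in CMP libraries, and 0, 0 and 4 in Neutrophil libraries. In the second set it had 0 reads in all 6 libraries, where Mpo had 1618 ProNeut and 76560 PreNeut reads.

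Plppr3 had 4609 reads in CD115plusGMP and 4726 in CMP libraries, far more than the 141 and 2 of Prtn3, which it overlaps, and 268 in Neutrophil libraries. Prss57 had 581 reads in Neutrophil, 148 in CD115plusGMP and 59 in CMP libraries. The reads assigned to it thus ran otherwise than those of Elane, but with the strand in doubt they may not be Prss57 messenger RNA. Fstl3, the follistatin-like gene that shares 1157 exon bases with Prss57 on the opposite strand, had 96 reads in Neutrophil, 1123 in CD115plusGMP and 75 in CMP libraries. Fstl3 was chosen after its values were seen. Elane, Ctsg, Ctsc, Srgn and Ms4a3 share 0 exon bases with an annotated gene on the opposite strand, and Mpo shares 512 with the antisense gene Gm11505, which is not in the table.

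Values across the 5 groups can be set side by side only by rank within a library, as a description that the doubt about the strand of the first set also touches. Genes with 0 reads numbered 3672 to 8266 in first-set and 1681 to 2457 in second-set libraries, and ranks among all genes depend on them. Elane stood at percentile 99.3 ± 0.111 in PreNeut, 89.5 ± 2.38 in CD115plusGMP and 62.2 ± 10.4 in ProNeut libraries (SD, n = 3 each), and had 1 and 0 reads in Neutrophil and CMP libraries. Prtn3 and Mpo had the same order of these 3 groups, with no overlap between neighbours. Mpo also stood at 51.9 ± 13.9 in CMP libraries, from 13 reads, which overlaps ProNeut at 71.8 ± 17.1. Ctsg stood highest in CD115plusGMP libraries, at 91.6 ± 2.80, ahead of PreNeut at 83.2 ± 1.36 and ProNeut at 48.2 ± 14.4. In CMP libraries Ctsg stood at 39.4 ± 21.7, from 8 reads, which overlaps ProNeut.

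Ctsc stood at 87.3 ± 1.61 in CD115plusGMP libraries, and at 41.8 ± 1.86 in PreNeut and 39.2 ± 5.71 in ProNeut libraries, which overlap. Ms4a3 stood at 96.8 ± 0.299 in PreNeut libraries, and at 80.2 ± 1.57 in ProNeut and 79.2 ± 2.42 in CD115plusGMP libraries, which overlap. Srgn stood at 92.4 ± 1.94 in Neutrophil and 90.6 ± 1.35 in PreNeut libraries, which overlap, then at 82.2 ± 2.25 in CD115plusGMP and 78.8 ± 1.90 in CMP libraries, which overlap, and last at 68.3 ± 2.85 in ProNeut libraries. It was the only member with more than 3 reads in every group. Ranked among genes with reads alone, Elane stood at 83.2 in CD115plusGMP libraries, and the order of groups changed for Srgn, with PreNeut at 89.0 ahead of Neutrophil at 83.6, which still overlap. Ms4a3 then stood at 77.4 in ProNeut and 67.0 in CD115plusGMP libraries, which no longer overlap, and Ctsg at 86.4 in CD115plusGMP and 80.4 in PreNeut libraries, which then overlap.

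The pattern closest to the mean of Elane, Prtn3, Ctsg and Mpo was sought over the 15 libraries, each gene centred on its mean in its set, among 5992 genes with at least 30 reads in each set. The 6 most alike were F10, B4galt4, Tfec, Rassf4, Gria3 and Fkbp1b, with Pearson's r of 0.96, 0.92, 0.90, 0.89, 0.88 and 0.87. F10, the coagulation factor X gene, averaged 2.48 log2 CPM in ProNeut and 4.57 in PreNeut libraries, with 347 and 4594 reads. In the first set it had 0 reads in Neutrophil, 35 in CD115plusGMP and 0 in CMP libraries. The libraries share their group, set and depth, so these values describe likeness only, and by Spearman's rho F10, Tfec and Rassf4 remained among the 6. Ctsc and Ms4a3 reached an r of 0.85 each, and Srgn an r of -0.02.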

How the data were processed

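Messenger RNA libraries were made with the Universal Plus mRNA-Seq kit, per the labels' protocols. The submitters' processing notes name FastQC 0.11.7, featureCounts 1.22.2, edgeR 1.30.5 and the mm10 build. No aligner, annotation or strand setting is named there (not given in the sources used here). The authors deposited log2 CPM values, log2 of reads plus 0.5 over a library size. Whole reads were recovered from them, to within 0.001 of a whole number, for 100% of values, and the library sizes the values imply differ from plain totals. Rows with no gene symbol, 503 of 14801, are kept in library totals.

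The main test was limma 3.58.1 (R 4.3.3) with a trended prior on the deposited log2 values of all 15 libraries, for genes above 0 log2 CPM in at least 3 libraries, with Benjamini-Hochberg adjustment over the 14161 genes tested. A call needs an adjusted p under 0.05 and a difference of at least 1 log2 unit. Other values used Python 3.11.15, pandas 2.3.3 and scipy 1.17.1. Ratios of reads are scaled by the implied library sizes, with exact 95% intervals that cover counting error only, and 0 reads are taken as up to 3 over the group. Alternatives were plain totals, quantile normalization, median centring, 2 reads added, voom weights, 1 set fitted alone, no filter, a replicate block and each library left out. The script was tested on simulated data. Members, lists, markers and motifs were chosen with earlier results of these data known. All members are named, with up to 4 genes of each list in a comparison, called ones with the largest difference first, and the 6 genes most alike. Gene positions are from GENCODE M21 and promoters from RefSeq.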

Additional observations from a re-analysis of the deposited data

How the results depend on the processing

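Between ProNeut and PreNeut libraries 6 members were called. The count was 5 with plain library totals, where Ms4a3 missed (adjusted p = 0.0636), 5 with median centring, where Ctsg missed (adjusted p = 0.0616), and 4 to 5 when 1 library was left out. Elane, Prtn3, Mpo and Srgn were called in every one of these fits. Ctsc changed sign without ProNeut replicate 1, at 0.0181 (range over the left-out libraries -0.80 to 0.0181). All genes called numbered 320, against 186 with median centring, 607 with 2 reads added, 1363 with voom weights, 903 with the set fitted alone, and 195 to 405 with 1 library left out. Between Neutrophil and CMP libraries 4 members were called, against 1 with plain library totals, 1 with quantile normalization, 2 with voom weights, 2 with the set fitted alone and 2 to 4 with 1 library left out. Uncalled members changed sign there: Prtn3 at -0.77 with plain library totals and -0.38 with quantile normalization, Ctsg at 0.28 with median centring and 0.33 with 2 reads added, and Mpo at 0.32 and 0.29 under the same settings and 0.10 without Neutrophil replicate 3 (range -1.78 to 0.10). Srgn was at -0.11 between CD115plusGMP and CMP libraries with plain library totals. The causes were not tested. Nothing in the labels says whether the replicate numbers pair the libraries. Same-numbered ProNeut and PreNeut libraries correlated at 0.0827, 0.0544 and 0.145 in their deviations from the group means. Differently numbered ones correlated at -0.133 to 0.0896, and values this small from so few libraries cannot decide it. With the replicate block 4 members were called there, Ctsg (adjusted p = 0.0521) and Ms4a3 (adjusted p = 0.0628) missing the threshold, and 3 between Neutrophil and CMP libraries. Depth limits the first set, where most members had under 10 reads in Neutrophil and CMP libraries.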
